A study of Mus musculus with 24 samples.

Results

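S100a8, Csf3r, Slfn4, Lcn2, Serpina3n and Slpi are 6 genes tied to neutrophils and to the acute phase response, followed here in mouse lung and skin after local irradiation. They are 6 of the 8750 features left when the 9275 probes of an Agilent mouse cDNA array were averaged per gene, and each was read by the only probe that the platform annotation gave to that symbol alone. The genes had been selected on their measured log2 changes from the unirradiated control of the same strain in both tissues. Their changes from control are therefore given as a description, without a test, and the counts of members that were higher support nothing by themselves. Tests are given for differences in level between strains and between tissues and for lists of other genes. The level tests over all arrays take in the irradiated arrays on which the selection rested, so the tissues are also compared in the controls alone.

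The arrays compared lung after 10 Gy of gamma rays to the thorax with full-layer skin of the hind leg after 30 Gy, each at 1 h, 12 h and 72 h and in mice without irradiation. Inbred females of 3 strains (C3H/HeMs, A/J and C57BL/6J), aged 12 to 13 weeks, were used, and RNA of 3 mice was pooled for each array. There were 24 arrays, 1 for every strain, tissue and time, so that the 3 strains served as the replicates of a time point and the spread between mice of a strain was not measured. Every array carried a common reference made of RNA from 10 organs. Lung RNA was labelled with Cy3 and skin RNA with Cy5, and the reference carried the other dye. Tissue, dye and dose went together and cannot be told apart. All levels below are log2 ratios of the sample over that reference, centred on the median of the array, and a level of a gene is not set against that of another gene.

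Neutrophils are short-lived granulocytes that leave the blood within hours of tissue injury, drawn by chemokines and by cytokines such as interleukin-1 and granulocyte colony-stimulating factor. The acute phase response is the shift in plasma proteins that these cytokines set off, chiefly in the liver, and several of its proteins are also made locally by epithelium, fibroblasts and leukocytes. Csf3r is the receptor for granulocyte colony-stimulating factor on the neutrophil lineage. S100a8 is a calcium-binding protein that fills the neutrophil cytosol together with its partner S100a9. Slfn4 is a myeloid member of the Schlafen family that interferon and Toll-like receptor signals induce. Lcn2, or lipocalin 2, withholds iron from bacteria by binding their siderophores and is made by neutrophils and by inflamed epithelium. Serpina3n is a secreted serine protease inhibitor and an acute phase protein, and Slpi is a small secreted inhibitor that blocks neutrophil elastase.

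The 6 genes lie on 5 chromosomes of the mouse assembly GRCm38.p6: Csf3r at chr4:126023441-126044975, S100a8 at chr3:90669071-90670034, Slfn4 at chr11:83175172-83190216, Lcn2 at chr2:32384637-32387739, Serpina3n at chr12:104406646-104414334 and Slpi at chr2:164354070-164356507. The bases before the RefSeq start site are printed for 5 of them, so that the promoters of genes that stood above control together in skin at 12 h can be read side by side. That of Csf3r, which was above control with them, is searched but not printed, because its window lies inside the annotated gene. Each is written 5′ to 3′ on the strand of the gene, and capitals mark a match to a searched motif. S100a8 is chr3:90668821-90669070 on the plus strand, Slfn4 chr11:83174936-83175171 on the plus strand, Lcn2 chr2:32387740-32387989 on the minus strand, Serpina3n chr12:104406458-104406645 on the plus strand and Slpi chr2:164356508-164356757 on the minus strand. For Slfn4 and Serpina3n the 14 and 62 bases of the 250-base window that fall inside the annotated gene are left off.
S100a8: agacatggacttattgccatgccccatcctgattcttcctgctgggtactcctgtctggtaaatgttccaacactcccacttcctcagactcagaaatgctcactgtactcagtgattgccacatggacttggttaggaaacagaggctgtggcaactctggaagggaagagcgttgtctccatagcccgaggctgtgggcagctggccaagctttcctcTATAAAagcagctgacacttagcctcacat
Slfn4: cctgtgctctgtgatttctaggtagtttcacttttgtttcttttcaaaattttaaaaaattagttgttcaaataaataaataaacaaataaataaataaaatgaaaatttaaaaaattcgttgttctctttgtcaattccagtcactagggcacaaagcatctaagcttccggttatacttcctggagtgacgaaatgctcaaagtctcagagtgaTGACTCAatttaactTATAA
Lcn2: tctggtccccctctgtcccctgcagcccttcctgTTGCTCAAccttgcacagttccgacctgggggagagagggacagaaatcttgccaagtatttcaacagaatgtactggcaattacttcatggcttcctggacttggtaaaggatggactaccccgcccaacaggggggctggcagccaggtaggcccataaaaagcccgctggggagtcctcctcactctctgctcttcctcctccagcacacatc
Serpina3n: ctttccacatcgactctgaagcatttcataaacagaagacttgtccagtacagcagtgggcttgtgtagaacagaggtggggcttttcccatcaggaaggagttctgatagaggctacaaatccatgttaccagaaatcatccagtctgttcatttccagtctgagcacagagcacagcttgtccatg
Slpi: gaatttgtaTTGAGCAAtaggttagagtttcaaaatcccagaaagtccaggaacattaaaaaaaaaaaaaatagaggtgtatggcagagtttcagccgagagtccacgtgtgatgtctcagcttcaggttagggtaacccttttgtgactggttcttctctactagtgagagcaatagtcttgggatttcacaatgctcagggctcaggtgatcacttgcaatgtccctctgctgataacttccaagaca

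The search covered both strands of the 250 bases before the start of all 6 genes, and the same windows of 32851 RefSeq promoters gave the background. TATAAA, the TATA box, was found 30 bases before the start of S100a8 and 19 bases before that of Slfn4, where the printed stretch ends inside it, and 12.4% of all promoters held it. TTGCNNAA, bound by C/EBP factors of the myeloid and acute phase programmes, was found 216 bases before the start of Lcn2 and, on the other strand, 241 bases before that of Slpi, against 9.56% of all promoters. TGANTCA, an AP-1 site, was found 34 bases before the start of Slfn4, and 6.75% of promoters held it. The NF-kB motif matched once, 129 bases before the start of Csf3r on the opposite strand, and 7.25% of promoters held it. Neither the STAT motif TTCNNNGAA, held by 7.02% of promoters, nor the interferon-stimulated response element (GAAA, any 2 bases, GAAA), held by 2.98%, matched in any of the 6 windows. Serpina3n had no match to any of the motifs. No motif was shared by more than 2 of the 6 genes.

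Before the results, 3 features of the arrays bear on them. The 12 h and 72 h lung arrays of A/J and C3H/HeMs, 4 in all, held 115 to 674 ratios of exactly 0, against 1 to 23 on the other 8 lung arrays and 0 to 42 on the skin arrays. The A/J control lung stood apart from the other controls in acute phase genes: the mean level of 19 such genes was -2.26 there, against -3.25 in C57BL/6J and -3.36 in C3H/HeMs. In C3H/HeMs skin, the mean level of 12 skeletal muscle genes was 1.55 in the control and 1.19 at 1 h, and -1.20 and -0.77 at 12 h and 72 h, while the skins of the other strains lay between -1.11 and 0.29. Tissue markers followed the labels. Sftpc, the surfactant protein of alveolar type II cells, averaged 2.36 ± 0.76 in lung and -6.53 ± 0.04 in skin (SD, n = 12 each). Krt10, a keratin of the differentiating epidermis, averaged -3.25 ± 0.99 in lung and 5.15 ± 0.93 in skin.

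In lung, Csf3r, S100a8 and Slfn4 stood above the unirradiated level at every time as a mean of the 3 strains, and Serpina3n stood 2.88-fold above it at 12 h. As means, Slpi in lung stayed within 0.19 of control on the log2 scale and Lcn2 lay below it. In skin all 6 genes stood above control at 12 h in every strain, by 2.89-fold to 4.71-fold as a mean. At 72 h Csf3r, Slfn4, Lcn2 and Slpi in skin were within 0.24 of control, Serpina3n was above it and S100a8 below it. The change of each gene from the control of its own strain is plotted by tissue and time.

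**Figure D1:**
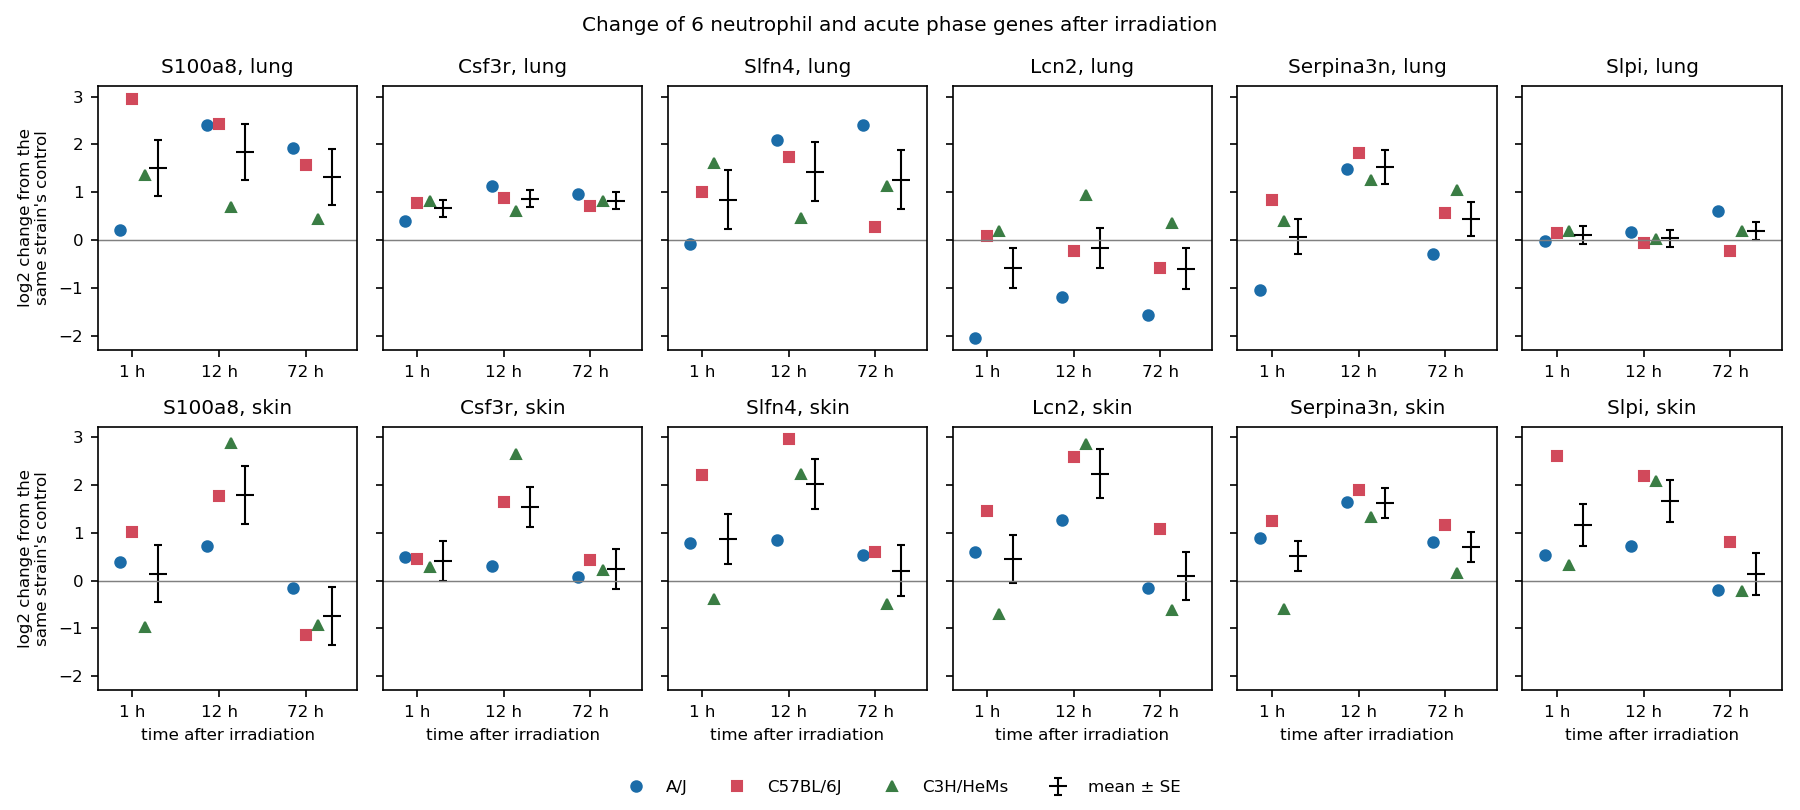
Log2 change of each gene from the unirradiated control of the same strain, in lung (upper row) and skin (lower row) at 1 h, 12 h and 72 h. Points are single arrays, 1 per strain, and the black mark is the limma mean of 3 strains with its standard error. All 18 points at 12 h in skin lie above 0, from 0.30 for Csf3r in A/J to 2.97 for Slfn4 in C57BL/6J.

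Csf3r, the receptor, had levels in lung of 0.46 for A/J, 0.26 for C57BL/6J and 0.26 for C3H/HeMs without irradiation. They were 0.86, 1.03 and 1.08 at 1 h, 1.58, 1.13 and 0.86 at 12 h and 1.42, 0.96 and 1.07 at 72 h. Every irradiated lung thus lay above all 3 control lungs, and A/J was the highest strain at 12 h and 72 h. The mean change was 0.66 at 1 h, 0.86 at 12 h and 0.82 at 72 h on the log2 scale, each with a standard error of 0.18 (n = 3), or 1.58-fold, 1.82-fold and 1.77-fold. In skin the controls were at -0.15, -0.24 and -0.68 in the same order of strains, the 1 h arrays at 0.34, 0.20 and -0.39, the 12 h arrays at 0.15, 1.39 and 1.98 and the 72 h arrays at -0.08, 0.18 and -0.45. The 12 h arrays lay above all controls, but the strains were far apart: A/J stood 0.30 above its control, C57BL/6J 1.63 and C3H/HeMs 2.65. The mean change in skin was 0.41, 1.53 and 0.24 at the 3 times, with a standard error of 0.42. Without the C3H/HeMs array of 12 h the mean at that time was 0.95.

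S100a8, the calcium-binding protein, had lung levels of 0.49, -1.13 and -0.18 in the controls, again for A/J, C57BL/6J and C3H/HeMs. They were 0.69, 1.83 and 1.17 at 1 h, 2.89, 1.29 and 0.50 at 12 h and 2.42, 0.44 and 0.25 at 72 h. The strains differed in timing, since C57BL/6J and C3H/HeMs were highest at 1 h and A/J at 12 h. From 1 h to 12 h the A/J level moved by 2.19, that of C57BL/6J by -0.54 and that of C3H/HeMs by -0.67. The mean change from control was 1.5, 1.83 and 1.31, each with a standard error of 0.59, or 2.84-fold, 3.57-fold and 2.48-fold. With 1 array or strain left out, the 1 h mean ran from 0.78 without C57BL/6J to 2.35 without the A/J array of 1 h. The 72 h mean ran from 0.88 without the A/J array of 72 h to 1.75 without C3H/HeMs. The 1 h and 12 h arrays lay above every control, and at 72 h the groups overlapped. In skin the S100a8 controls were at -0.68, 0.15 and -0.17, the 1 h arrays at -0.30, 1.18 and -1.15, the 12 h arrays at 0.04, 1.91 and 2.71 and the 72 h arrays at -0.83, -0.98 and -1.10. The gene stood 3.45-fold above control at 12 h, a log2 change of 1.79 ± 0.60 (SE), and the A/J array at 12 h was lower than the C57BL/6J control. Without the C3H/HeMs array of 12 h that change was 1.02. At 72 h all 3 skin arrays lay below all 3 controls, with a mean change of -0.74 (-0.40 without the C57BL/6J array of that time), while the 3 lung arrays at that time were each above their own control.

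Slfn4, the Schlafen gene, had lung levels of 0.61, 0.58 and 1.27 in the controls, 0.53, 1.58 and 2.89 at 1 h, 2.70, 2.31 and 1.73 at 12 h and 3.01, 0.86 and 2.39 at 72 h. Each strain had its highest lung level at a different time, C3H/HeMs at 1 h, C57BL/6J at 12 h and A/J at 72 h. The 12 h arrays lay above all controls, and at 1 h and 72 h the groups overlapped. The mean change was 0.85, 1.43 and 1.26, each ± 0.61 (SE). With 1 array or strain left out, the 1 h mean ran from 0.28 without the C3H/HeMs array of 1 h to 1.61 without that of A/J, and the 72 h mean from 0.65 without the A/J array of 72 h to 1.84 without that of C57BL/6J. In skin the Slfn4 controls were at 0.41, -0.75 and 0.67, the 1 h arrays at 1.20, 1.45 and 0.28, the 12 h arrays at 1.27, 2.22 and 2.91 and the 72 h arrays at 0.94, -0.15 and 0.17. At 12 h the gene stood 4.06-fold above control, with log2 changes of 0.86, 2.97 and 2.24 in the strains and no overlap with the controls. At 72 h the mean change was 0.21 ± 0.53.

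Lcn2, the siderophore-binding protein, had the most unlike mean changes at 12 h, -0.16 in lung and 2.24 in skin. Its lung levels were 0.99, 0.02 and -1.11 in the controls, -1.06, 0.09 and -0.92 at 1 h, -0.21, -0.21 and -0.16 at 12 h and -0.58, -0.57 and -0.75 at 72 h. The control lungs were spread over 2.09 log2 units and the 12 h lungs over 0.05. The 1 h lungs were spread over 1.16 and the 72 h lungs over 0.18. The change from control was negative at every time in A/J, positive at every time in C3H/HeMs, and near 0 or below in C57BL/6J. The mean change was -0.60, -0.16 and -0.60 (SE 0.42). Without the A/J control lung, which also stood apart in acute phase genes, it was -0.02, 0.41 and -0.02. In skin the Lcn2 controls were at -2.29, -2.94 and -2.02, the 1 h arrays at -1.70, -1.49 and -2.73, the 12 h arrays at -1.03, -0.36 and 0.84 and the 72 h arrays at -2.46, -1.86 and -2.65. At 12 h Lcn2 had the highest mean change of the 6 genes, 2.24 ± 0.50 or 4.71-fold, and was at least 2-fold above control in each strain (1.27, 2.58 and 2.86 on the log2 scale). At 72 h its mean change was 0.10 ± 0.50, made up of -0.16 for A/J, 1.08 for C57BL/6J and -0.62 for C3H/HeMs. With 1 array or strain left out, that mean ran from -0.39 to 0.46.

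Serpina3n, the secreted protease inhibitor, was the member whose 12 h change in skin was most alike across the strains, and its change in lung at that time was of like size. In lung its levels were -0.90, -2.15 and -2.31 in the controls, -1.93, -1.32 and -1.91 at 1 h, 0.59, -0.33 and -1.05 at 12 h and -1.18, -1.58 and -1.28 at 72 h. The A/J control lay above the C3H/HeMs array at 12 h, so the groups overlapped although each strain stood above its own control. The 12 h changes were 1.49, 1.82 and 1.26, a mean of 1.52 ± 0.36 (SE) or 2.88-fold, and the means at 1 h and 72 h were 0.06 and 0.44. Without the A/J control lung, which stood above the other controls, the 3 means were 0.37, 1.83 and 0.75. With 1 array or strain left out, the 1 h mean ran from -0.32 without C57BL/6J to 0.62 without A/J, and the 72 h mean from 0.14 without C3H/HeMs to 0.80 without A/J. In skin the Serpina3n controls were at 0.13, -0.39 and 0.54, the 1 h arrays at 1.02, 0.86 and -0.06, the 12 h arrays at 1.77, 1.5 and 1.87 and the 72 h arrays at 0.94, 0.77 and 0.69. At 12 h the skin changes were 1.64, 1.89 and 1.33, a mean of 1.62 ± 0.31 or 3.07-fold. The SD over the 3 strains was 0.28 in both tissues, while for the other 5 genes in skin at 12 h it ran from 0.82 for Slpi to 1.18 for Csf3r. In lung at 12 h it was lower for Slpi (0.11) and Csf3r (0.26) and higher for S100a8, Slfn4 and Lcn2. At 72 h the skin arrays still lay above all 3 controls, with a mean change of 0.71 ± 0.31.

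Slpi, the elastase inhibitor, kept close to control in lung and not in skin. Its lung levels were 1.10, 0.58 and 0.73 in the controls, 1.08, 0.73 and 0.92 at 1 h, 1.26, 0.51 and 0.75 at 12 h and 1.71, 0.35 and 0.92 at 72 h. The order of strains, A/J above C3H/HeMs above C57BL/6J, was the same in all 4 lung groups. The mean change in lung was 0.11, 0.04 and 0.19, each ± 0.18 (SE). In skin the Slpi controls were at -0.32, -0.84 and 0.18, the 1 h arrays at 0.21, 1.77 and 0.50, the 12 h arrays at 0.40, 1.34 and 2.27 and the 72 h arrays at -0.52, -0.04 and -0.03. It was the only member whose 3 skin arrays at 1 h all lay above the controls, with a mean change of 1.15 ± 0.44, made up of 2.61 for C57BL/6J, 0.53 for A/J and 0.32 for C3H/HeMs. Without C57BL/6J it was 0.42. At 12 h the mean change was 1.66 ± 0.44 or 3.16-fold.

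**Figure D2:**
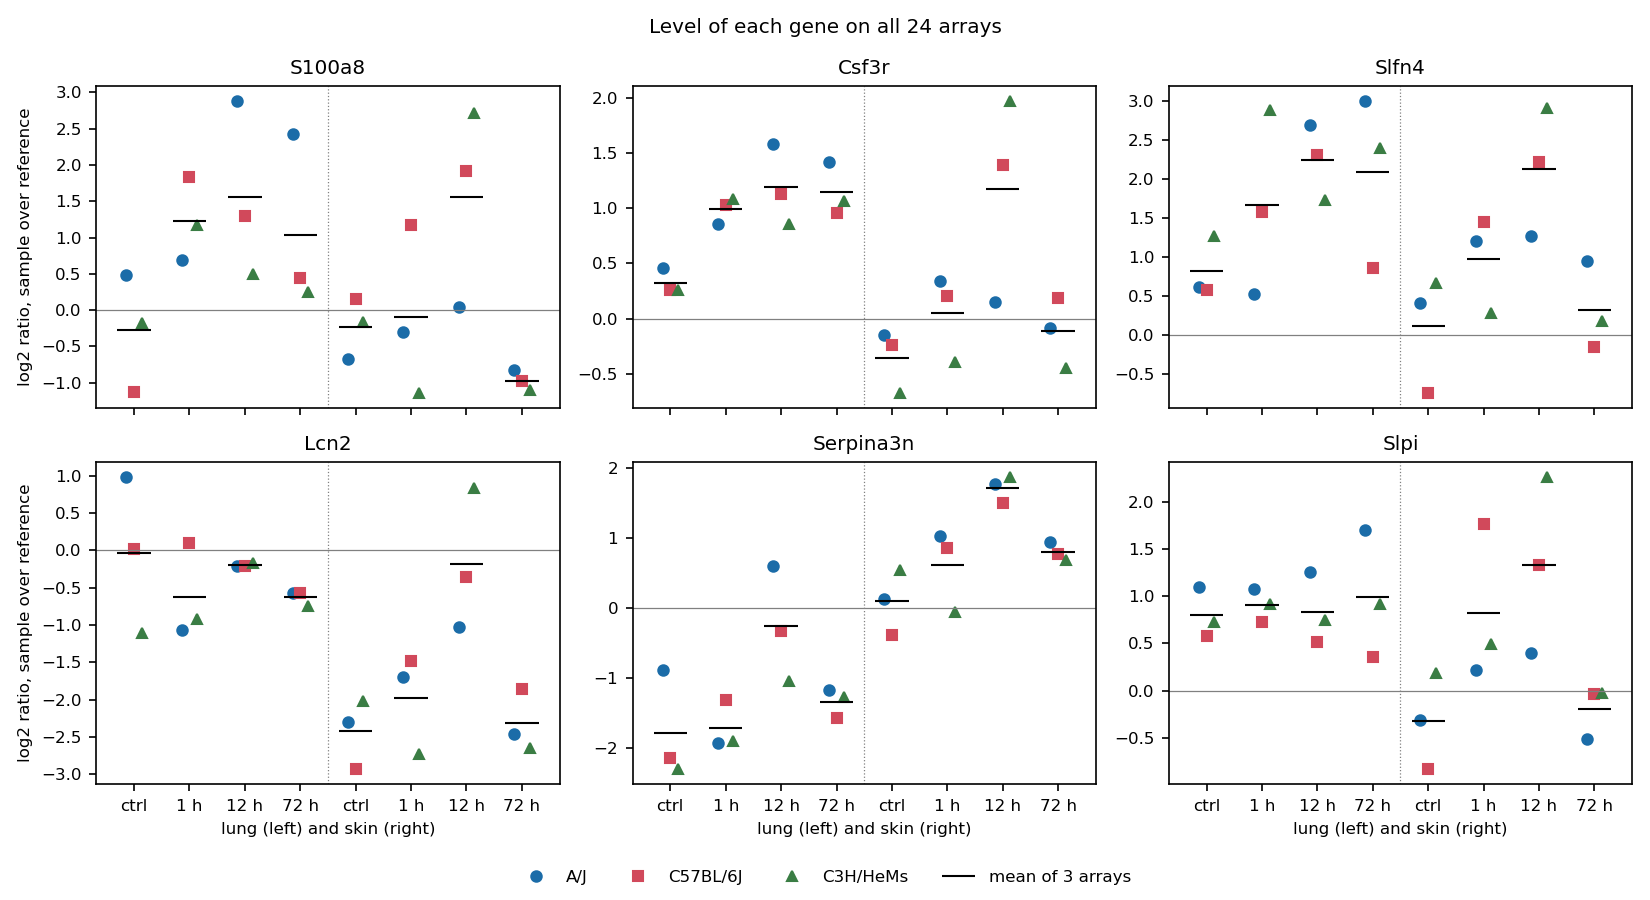
Level of each gene (log2 ratio of sample over reference, array median at 0) on all 24 arrays, lung on the left and skin on the right of each panel, with a bar at the mean of the 3 strains. The vertical scale differs between panels. The 12 h skin arrays of Serpina3n lie between 1.5 and 1.87, and those of S100a8 spread from 0.04 to 2.71.

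Counted over the members, 2, 4 and 3 of the 6 genes were above their own control in all 3 strains in lung at the 3 times in turn, and of all features 14.6%, 16.8% and 18.4% were. In skin the counts were 2, 6 and 2, against 11% of all features at 1 h, 10.3% at 12 h and 14.7% at 72 h. The 3 irradiated arrays lay above all 3 controls for 2, 3 and 1 members in lung (3.53%, 6.39% and 7.15% of all features) and for 1, 5 and 1 in skin (2.59%, 3.63% and 4.19%). S100a8 in skin at 72 h was the single case of 3 arrays below all controls, as were 5.94% of all features. At least 2-fold above control in every strain were Serpina3n in lung at 12 h (0.149% of all features) and Lcn2 and Serpina3n in skin at 12 h (0.251%). At 1 h no member reached this in either tissue (0.0229% of features in lung and 0.103% in skin), nor did any at 72 h (0.08% and 0.183%). These counts describe how the members had been picked, and nothing is read from them.

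The strains shared the 12 h skin pattern but not its size. In A/J skin at 12 h, 2 of the 6 genes were at least 2-fold above control and the median change of the 6 was 0.79. In both other strains all 6 were, with median changes of 2.03 for C57BL/6J and 2.44 for C3H/HeMs. At 1 h in skin 5 of the 6 genes were at least 2-fold above control of C57BL/6J, against 0 for A/J and 0 for C3H/HeMs, whose median change was -0.49. S100a8, Slfn4, Lcn2 and Serpina3n in C3H/HeMs skin were below control at 1 h and above it at 12 h. From 12 h to 72 h all 6 genes moved down in skin in all 3 strains, by -0.23 for Csf3r in A/J up to -3.81 for S100a8 in C3H/HeMs. These differences in size between strains rest on 1 array each and were not tested. The share of all features at least 2-fold above control on a single array was not counted. The counts per strain are therefore not read as particular to the members. The C3H/HeMs skin arrays at 12 h and 72 h were also those with low skeletal muscle genes, whose median change there was -3.19 and -2.52, against 0.67 for A/J and -0.27 for C57BL/6J at 12 h. Their part in the result was not tested. Without C3H/HeMs the mean 12 h changes in skin were 0.97 for Csf3r, 1.24 for S100a8, 1.91 for Slfn4, 1.92 for Lcn2, 1.76 for Serpina3n and 1.44 for Slpi.

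A test of strain differences in level over all 4 groups of a tissue, with the time as a block, called none of the 6 genes in either tissue. The limma F test with Benjamini-Hochberg adjustment over all features called 258 features in lung (2.95%) and 33 in skin (0.377%), with 2077 and 1674 at an unadjusted p under 0.05. Slpi in lung came nearest: its mean over the 4 groups was 1.29 ± 0.29 in A/J, 0.83 ± 0.10 in C3H/HeMs and 0.54 ± 0.16 in C57BL/6J (SD, n = 4). The difference of A/J and C57BL/6J was 0.74 ± 0.16 (SE), with a limma F test adjusted p of 0.0723. It passed with quantile scaling (difference 0.84, limma adjusted p = 0.0264) and without the time block (limma adjusted p = 0.0477). S100a8 in lung averaged 1.62 ± 1.21 in A/J and 0.43 ± 0.56 in C3H/HeMs, a difference of 1.19 ± 0.51 (limma adjusted p = 0.271). In skin the smallest limma adjusted p of the members was 0.390, for Slpi.

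Levels in skin and lung were compared first in the 3 control arrays of each tissue, which hold no response to irradiation. Serpina3n was higher in skin, with a mean of 0.09 against -1.79 and a difference of 1.88 ± 0.37 (SE, limma adjusted p = 0.0101). Lcn2 was lower in skin, at -2.42 against -0.03, a difference of -2.39 ± 0.48 (limma adjusted p = 0.0104). Slpi was lower by -1.13 ± 0.27 and Csf3r by -0.68 ± 0.22 (limma adjusted p = 0.0174 and 0.0450). Slfn4 did not pass, at -0.71 ± 0.28 (limma adjusted p = 0.0819), and S100a8 differed by 0.04 ± 0.46 (limma adjusted p = 0.941). Thus 1 member was higher and 3 were lower in skin, where 29.4% of all features were called higher and 21.6% lower. These control arrays are also the base of the changes on which the genes were selected.

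Over all 24 arrays the comparison took in the irradiated groups, so that a change from control in a tissue moves its mean. Serpina3n was at 0.80 ± 0.70 in skin against -1.28 ± 0.82 in lung (SD, n = 12 each), a difference of 2.08 ± 0.18 (SE) or 4.23-fold (limma adjusted p = 8.02e-09). The difference was -1.35 ± 0.25 for Lcn2 (limma adjusted p = 8.27e-05) and -0.73 ± 0.17 for Csf3r (limma adjusted p = 0.000877). These 3 genes therefore passed both with and without the irradiated arrays. The others did not keep 1 result. Slpi was at -0.48 ± 0.23 and S100a8 at -0.82 ± 0.37 over all arrays (limma adjusted p = 0.0635 and 0.0525), and each passed when certain single arrays were left out. For S100a8 these were the C57BL/6J lungs of the controls (0.0280) and of 72 h (0.0381), the A/J lung of 1 h (0.0403), the C3H/HeMs lungs of 12 h (0.0327) and 72 h (0.0444), the C57BL/6J skin of 1 h (0.0212) and the C3H/HeMs skin of 12 h (0.0139), and it also passed without C57BL/6J (0.0462). Slpi passed without C57BL/6J (0.0303), without its 72 h lung (0.0370) or 1 h skin (0.00789), and without the C3H/HeMs skin of 12 h (0.0191). Slfn4, at -0.82 ± 0.29 (limma adjusted p = 0.0175), lost the call without C57BL/6J (0.0551), without C3H/HeMs (0.0823) and with the 4 lung arrays of many 0 ratios as a block (-0.62, 0.155). Over all arrays 1 member was called higher and 3 lower in skin, as were 44.9% and 31.8% of all features.

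The other genes of the same programmes were read from 4 lists: 15 measured neutrophil genes, 19 acute phase genes that go up in the classical response, 5 that go down in it, and 24 signals that recruit neutrophils or start the acute phase. None of these 63 genes, and none of the 167 measured genes of all 18 lists, passed the limma test over all features in any of the 6 comparisons with control. The smallest adjusted p was 0.168. At a limma unadjusted p under 0.05 there were 3, 6 and 7 of the 63 genes in lung at the 3 times. In skin there were 18 at 12 h and 5 at 72 h. At 1 h in skin, 5 of the 24 signals were higher and 1 lower. Of the 19 acute phase genes 3 were then higher and 3 lower, of the 5 others 1 was lower, and 0 neutrophil genes reached this. The test itself called few features. In lung 1, 10 and 8 were called higher (0.0114%, 0.114% and 0.0914%) and 0, 0 and 2 lower (0.0229% at 72 h). In skin 0 were called at each time. Of all 8750 features, 196, 1055 and 1085 in lung and 382, 587 and 647 in skin had a limma unadjusted p under 0.05.

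The neutrophil list had a median log2 change of 0.10, 0.31 and -0.08 in skin at the successive times and of 0.08, 0.01 and 0.07 in lung, beside medians over all features of -0.05, -0.03 and -0.01 in skin and -0.01, 0.07 and 0.05 in lung. The 12 h skin median of the list differed between the strains, at 0.43 for A/J, 0.65 for C57BL/6J and -0.03 for C3H/HeMs. It was 0.85 without C3H/HeMs, 0.69 without its control and 0.66 without its 12 h array, and 0.13 without C57BL/6J and 0.09 without its 12 h array. The 6 genes themselves had medians of 0.48, 1.72 and 0.17 in skin and 0.38, 1.15 and 0.63 in lung. The neutrophil genes with the smallest p in skin at 12 h were Gda, a guanine deaminase, at 1.08 ± 0.30 (limma adjusted p = 0.476), and Itgam, the CD11b integrin of myeloid cells, at 1.42 ± 0.45 (0.604). Itgam, like several members, had its smallest change in A/J (0.29), with 2.35 for C57BL/6J and 1.62 for C3H/HeMs. In lung Gda was again the neutrophil gene of smallest p, at 0.67 ± 0.20 at 12 h (limma adjusted p = 0.349). The granule genes gave other values. Ngp, Camp, Ltf and Mpo code for the proteins that neutrophil precursors pack into granules in the marrow. In skin at 12 h the changes, for the strains in the same order, were -0.69, -0.04 and 0.40 for Ngp, -0.12, -0.65 and 0.89 for Camp, 0.38, 2.40 and -0.68 for Ltf and 0.60, 0.08 and -0.03 for Mpo. In lung at 12 h their mean changes were -0.27 for Ngp, -0.03 for Camp, -0.46 for Ltf and 0.01 for Mpo, with standard errors of 0.28 to 0.38. S100a9, the partner of S100a8, and the neutrophil genes Elane and Cxcr2 were not analysed here.

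Of the acute phase genes, Saa3, a serum amyloid A made outside the liver, stood at 3.69 ± 0.80 above control in skin at 12 h, or 12.9-fold, with 1.45, 3.50 and 6.10 in the strains in order (limma adjusted p = 0.273). Timp1, an inhibitor of matrix metalloproteinases, was at 2.26 ± 0.43 (limma adjusted p = 0.168). Ptx3, a pentraxin made at sites of inflammation, was at 1.91 ± 0.54 in skin at 1 h, and Apcs, the serum amyloid P component, at -1.39 ± 0.33 (limma adjusted p = 1.00 for each). The skin changes of Saa3 and Timp1 at 12 h were lowest in A/J and highest in C3H/HeMs, as were those of Lcn2, S100a8 and Csf3r. Those of Slfn4, Serpina3n and Slpi were highest in C57BL/6J. The list as a whole had a median change of 0.08 in skin at 12 h (from -0.01 without the A/J control to 0.45 without the C3H/HeMs control), with 10 of 19 genes above 0, and Saa3 and Timp1 were its only genes at least 2-fold above control in all strains. In lung Saa3 was at 0.63 in the A/J control against -2.96 for the C57BL/6J control and -2.83 for that of C3H/HeMs. Its 1 h change there was -3.87 in A/J, which rests on that high control. The 12 h lungs had Saa3 levels of 0.39, -0.70 and -1.21, with the strains in order. A/J alone was then below its control, while the other strains were above theirs. These lung differences were not tested by strain.

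Among the recruiting signals in skin, Il1b, which codes for interleukin-1 beta, stood at 1.79 ± 0.33 above control at 1 h (limma adjusted p = 0.503) and at 1.72 ± 0.33 at 12 h (0.168). Socs3, a feedback inhibitor of cytokine receptors, was at 1.43 ± 0.37 at 1 h, with 1.82, 2.02 and 0.46 in the strains in order (limma adjusted p = 1.00). The median of this list was 0.39 at 1 h, 0.37 at 12 h and 0.04 at 72 h in skin, with 20, 18 and 13 of 24 genes above 0. The 12 h median was 0.22 without the C3H/HeMs array of that time. In lung the gene of smallest p was Cxcl15, a chemokine of lung epithelium, at 1.25 ± 0.31 at 72 h (limma adjusted p = 0.296).

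The families of the members were read in the same way. Of 4 measured Schlafen genes in skin at 12 h, Slfn1 was at 1.90 ± 0.49 (limma adjusted p = 0.457), Slfn2 at 1.59 ± 0.44 (0.482), Slfn3 at 0.60 ± 0.33 (0.812) and Slfnl1 at -0.16 ± 0.21 (0.936). Their median was 1.10, from 0.77 without C57BL/6J to 1.52 without the A/J array of 12 h, and in lung at that time it was -0.0049. The other families had lower medians in skin at 12 h. The median was -0.17 over 8 other S100 genes (3 above 0) and -0.02 over 8 other lipocalins (4 above 0). It was -0.17 over 3 other serpins of clade A (0 above 0) and 0.01 over 3 other genes of the whey acidic protein family (2 above 0). The 3 serpins averaged -5.05 to -5.03 in skin at 12 h, toward the lower limit of the ratios, where a change can hardly show. Their median is therefore not read as a result about the family. Serpina1b and Serpina1c, which are among them, also belong to the acute phase list.

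**Figure D3:**
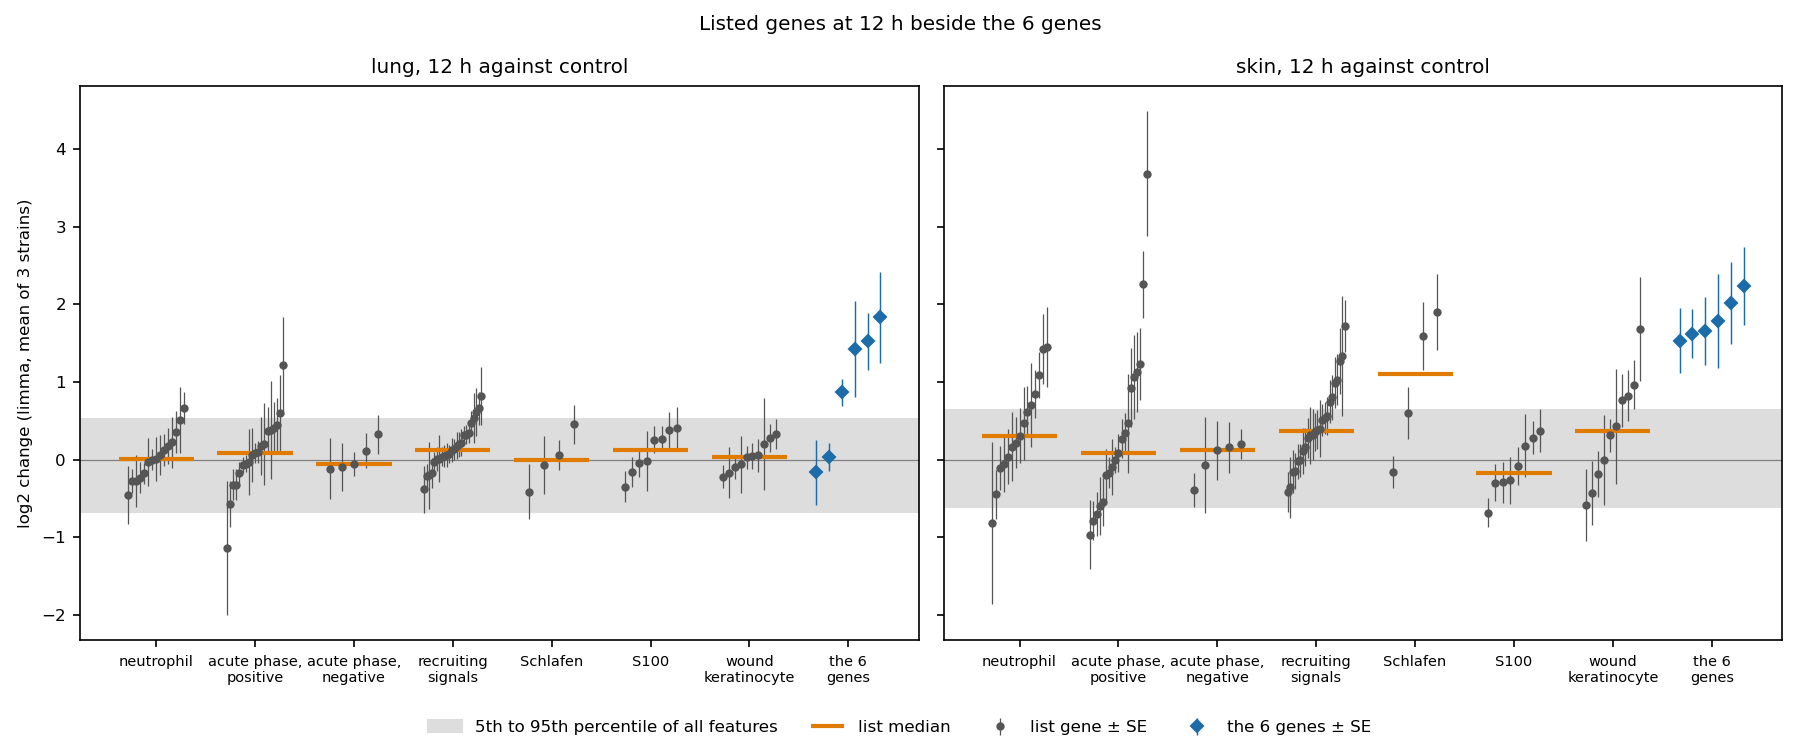
Mean log2 change from control at 12 h (limma coefficient of 3 strains with its standard error) of the genes of 7 lists beside the 6 genes, in lung and skin. Orange bars are list medians and the grey band spans the 5th to the 95th percentile of all features. In skin the 6 genes lie from 1.53 to 2.24 and the neutrophil list has its median at 0.31.

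The mean level of marker lists on each array is plotted for the cell types that the tissues could hold. In skin the neutrophil list averaged 0.06 to 0.29 in the 3 controls and 0.53 to 0.65 at 12 h, and the macrophage and monocyte list 0.31 to 0.99 and 0.90 to 1.44. In C3H/HeMs the macrophage and monocyte list was lower at 12 h, at 0.90 against 0.99 in the control. The neutrophil list there went from 0.29 to 0.53, while its median change was -0.03. Its gene Chil1 went from -0.22 to 2.92 in that strain. The list of wound keratinocyte genes averaged 2.31 to 2.73 in the control skins and 2.84 to 3.84 at 1 h. In lung the neutrophil list was at 0.18 to 0.79 in the controls and at 0.37 to 0.75 at 12 h, with A/J highest in both groups. In RNA of whole tissue, more cells of a type and more RNA per cell cannot be told apart. The part of these shifts in the values of the 6 genes was not tested.

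**Figure D4:**
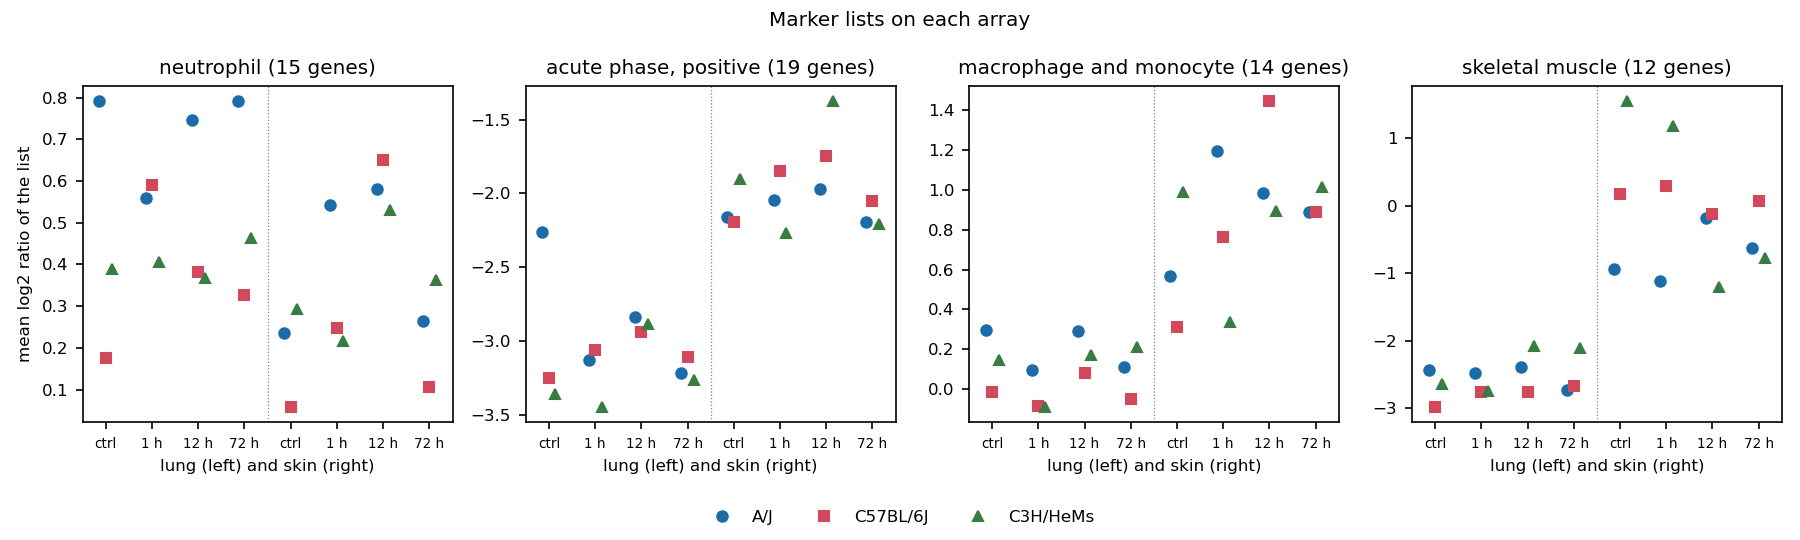
Mean log2 ratio of 4 marker lists on each of the 24 arrays, lung on the left and skin on the right of each panel. Points are single arrays by strain. In skin the neutrophil list lies at 0.06 to 0.29 in the controls and 0.53 to 0.65 at 12 h, and the skeletal muscle list of C3H/HeMs goes from 1.55 in the control to -1.20 at 12 h.

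Likeness in pattern was measured as the root mean square difference of the log2 changes over the 18 irradiated arrays, which share 6 control arrays. Only the 5908 features with 1 gene symbol were searched, and clone or prediction identifiers among them were passed over. The genes closest to S100a8 were Slfn4 (0.89), Csf3r (0.97) and Il1b (1.02), and the root mean square change of S100a8 itself was 1.59. Slfn4 was closest to Csf3r (0.80), Il1b (0.86) and Mdm2, a p53 target (0.87). Csf3r was closest to Ier5l (0.46), Snhg15 (0.51) and Sirpb1a (0.51), against 0.96 for its own change. Lcn2 was closest to Timp1 (0.73), Tnf (0.74) and Ccl4 (0.78), Serpina3n to Pros1, Ly6f and Gda (0.59 each), and Slpi to Ifi207 (0.46), Trex1 (0.49) and Slfn2 (0.49). Over both tissues, S100a8 and Slfn4 had other members among their 3 closest genes, and Csf3r, Lcn2, Serpina3n and Slpi had none. The members had been selected on these same changes, so closeness between members supports nothing by itself. In skin alone, over 9 arrays, Slfn4 was closest to Slfn2 (0.46), which is not a member, and then to Slpi (0.48) and Lcn2 (0.49). In lung alone Slfn4 was closest to Pmaip1 (0.58) and Mdm2 (0.71), while S100a8 was closest to Il1b (0.86) and Slfn4 (0.88).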

How the data were processed

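RNA of whole lung and skin was measured on 24 arrays, each with RNA pooled from 3 mice. The authors deposited the log10 of Cy5 over Cy3 per probe, made with Agilent Feature Extraction per the submitters' processing notes. Its version, background and dye steps and spot filters are not given in the sources used here. Their limit of ±2 and the labelled dyes gave scale and direction, which the tissue markers followed. Lung values were turned in sign, and all were multiplied by 3.32 to log2 and centred on each array's median. The number of arrays limits the precision. Probes were named from the platform annotation (6433 with 1 symbol, 381 with several, 2461 with none) and averaged per gene. Promoters are from RefSeq, GRCm38.p6, and all 6 genes matched.

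limma 3.58.1 in R 4.3.3 fitted each tissue with 4 groups plus strain as a block (6 residual degrees of freedom), the strains with the time as a block, and skin minus lung over 24 arrays with 8 groups plus strain (14). P-values were adjusted by the Benjamini-Hochberg method over 8750 features, with a threshold of 0.05. The fits were tested on simulated data. Replicate numbers stand for strains: deviations of same-strain arrays correlated from -0.05 to 0.71 in lung and from -0.05 to 0.68 in skin. The members and the 18 gene lists were chosen with earlier results of these data known. From each list the genes that passed were to be named, or else up to 2 with the smallest p; Slfn4's and S100a8's relatives, 7 neutrophil genes and 3 tissue markers were named by choice, as were the 3 genes closest to each member. Saa3 in lung and Itgam by strain were added after their values were seen. Scaling, blocks, left-out arrays and the fold threshold were varied.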

Additional observations from a re-analysis of the deposited data

Results flagged for a closer look

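S100a8 at 72 h stood above its own control in lung in all 3 strains and below it in skin in all 3 strains. In lung after 10 Gy the log2 change was 1.93 for A/J, 1.57 for C57BL/6J and 0.43 for C3H/HeMs. In skin after 30 Gy these were -0.15, -1.14 and -0.93, and the skin mean change minus the lung mean change was -2.05. The difference was not tested, and tissue, dose and dye cannot be told apart in it.

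Lcn2 in lung stood below control at all 3 times in A/J and above it at all 3 times in C3H/HeMs. The changes at 1 h, 12 h and 72 h were -2.05, -1.20 and -1.56 in A/J and 0.19, 0.94 and 0.36 in C3H/HeMs, and the mean of C3H/HeMs minus that of A/J was 2.10. All 3 values of a strain share 1 control array, and the A/J control had the highest Lcn2 level of all lung arrays, 0.99. The difference was not tested.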

How the results depend on the processing

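No strain or tissue test of a member changed direction with a call under any alternative run. Only tested results could be judged in this way, and some untested mean changes did change sign. Serpina3n in lung at 1 h kept its sign in 15 of 21 runs, with values from -0.32 to 0.62. Slpi in lung at 12 h kept it in 17 of 21 and Lcn2 in 19 of 21. In skin at 12 h all 6 genes kept it in all 20 runs. The members' changes from control gave 738 values under the alternatives, of which 726 moved by less than the spread between strains. With the 4 lung arrays of many 0 ratios as an added block, the 12 h changes in lung were 1.53 for S100a8, 0.76 for Csf3r, 1.01 for Slfn4, -0.53 for Lcn2, 1.35 for Serpina3n and -0.25 for Slpi. The count of members differing between strains in lung was 0, and 1 with quantile scaling and 1 without the time block, Slpi in both. At 1.5-fold in place of 2-fold, 3 members in lung at 12 h were higher in all strains, against 1. The counts were 1 in lung at 72 h and 5 in skin at 12 h, against 0 and 2. A lower threshold can only keep or raise a count. The share of all features was not counted at 1.5-fold, so nothing is read from this rise. Leaving out single arrays or strains gave 0 to 1 members at 2-fold in lung at 1 h, 1 to 3 at 12 h and 0 to 1 at 72 h. In skin at 12 h it gave 2 to 6. Only the remaining strains then had to pass, so these counts could only stay or rise. They do not show how firm the counts are, and the share of all features was not counted for them. The 6 in skin came without A/J or either of its arrays concerned, and the 3 in lung at 12 h without C3H/HeMs or either of its arrays. Without the replicate block for strain the members' mean changes were the same, no list gene was called, and S100a8 in skin minus lung passed (-0.82, limma adjusted p = 0.0441). S100a8 also passed without centring (-1.02, limma adjusted p = 0.0176) and Slpi likewise (-0.68, 0.0105), and S100a8 did without features at the limit or at 0 on any array (limma adjusted p = 0.0490). The count of members that differed between skin and lung ran from 3 to 6 with arrays or strains left out. In the control arrays alone Slfn4 lost its call and Slpi gained one (-1.13, limma adjusted p = 0.0174). The pathway genes called were 0 under every alternative. Arrays at 1 per strain and time leave the spread between animals unmeasured.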
